A study of Mus musculus with 8 samples.

Results

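Arid3a, Arid3b and Arid3c are the 3 members of the ARID3 family of DNA-binding transcription factors, and their probes were followed across mouse pro-B cells in which the balance of Lin28b and let-7 had been shifted by retrovirus. The probes were all non-control probes whose gene name in the scanner files was Arid3a, Arid3b or Arid3c, which gave 3 of 31829 gene names and 6 of the 39429 probes on the array, 2 for Arid3a, 3 for Arid3b and 1 for Arid3c. All 6 passed the filter on dim probes, as did 28409 probes in all.

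ARID3 proteins bind AT-rich DNA through an AT-rich interaction domain. Arid3a, also called Bright, was first described in B cells as an activator of immunoglobulin heavy chain transcription, and it is also known for roles in blood stem cells and early B cell development. Arid3b can pair with Arid3a and is known from embryonic and tumour cells, while Arid3c is the least studied of the family. The let-7 microRNAs repress mRNAs that carry matches to their seed, and Lin28b, an RNA-binding protein, blocks the maturation of let-7. Lin28b is high and mature let-7 is low in fetal blood progenitors, and the reverse holds in adult ones.

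The 4 groups had 2 arrays each, 8 Agilent arrays in all, hybridised with Cy3-labelled RNA alone. All cells were pro-B cells of the BALB/c Rag1 null strain, which lacks a recombinase gene and cannot pass the pro-B stage, so every group including the controls carries that deficiency. The adult bone marrow (BM) groups were BM empty vector (pMIG) and BM Lin28b, from sorts that pooled 2 mice each, and the fetal liver (FL) groups were FL empty vector (MSCV) and FL let-7b, from sorts that pooled embryos of gestation day 16, on average 8 per sort. Sorted cells were kept on OP9 stromal cells with IL-7 in plates of 24 wells, of which 12 received the virus under test and 12 its empty vector. Transduced, GFP-positive cells were collected by a sort 4 days later and 100 ng of their RNA was amplified, so each value is a bulk level after several days in culture under a viral promoter. The labels number the arrays 1 and 2 in each group without saying which sort each came from, and p-values measure only the spread between these arrays.

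The microRNA supplied to the FL cells is shown first, with relatives that share or lack its seed, because the seed (bases 2 to 8, in capitals) sets which mRNAs it can pair with. The mature sequences are from RefSeq (GRCm38.p6), written 5′ to 3′.
let-7b-5p: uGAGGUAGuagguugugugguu
let-7a-5p: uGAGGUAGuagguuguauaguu
let-7g-5p: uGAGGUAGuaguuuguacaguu
miR-98-5p: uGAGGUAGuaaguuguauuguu
let-7j: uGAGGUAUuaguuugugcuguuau
Of the 11 mature members of the family in that table, 10 carried the seed GAGGUAG and 1, let-7j, carried GAGGUAU. The match to the shared seed (CTACCTC, searched on both strands) was in 0 of the 6 Arid3 probes and in 228 (0.578%) of all 39429 probes of the same length. That search covers the probes alone, and the untranslated regions of the Arid3 mRNAs were not analysed here.

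The probes sit at these places in the mouse build mm9, per the file headers and the array design. Arid3a (NM_007880) was read by probes A_55_P1952166 at chr10:79417377-79417436 and A_55_P2182358 at chr10:79417698-79417757, both on the plus strand with 261 bases between them. The first is listed for 3 Ensembl transcripts and the second for 1, and both have a GC content of 36.7%. Arid3b (NM_019689) was read by A_51_P161554 at chr9:57638549-57638608, listed for 1 transcript, and by A_55_P2123993 and A_55_P2123987, each listed for 3 transcripts, all on the minus strand. The placements of A_55_P2123993 (chr9:57640491-57642800) and A_55_P2123987 (chr9:57646030-57658028) span more bases than the probes are long, so each crosses an exon junction and reads spliced RNA. Arid3c (NM_001017362) was read by A_55_P2077278 at chr4:41671738-41671797 on the minus strand. No annotation of that build was used, so exon or untranslated region was not assigned further.

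Both junction-crossing Arid3b probes and the Arid3c probe are shown because the paralogs are related and a reader can see how far their probes differ. Capitals in the first pair mark the bases that are the same in their best ungapped alignment, 30 of 57 aligned bases (52.6%).
Arid3b A_55_P2123993: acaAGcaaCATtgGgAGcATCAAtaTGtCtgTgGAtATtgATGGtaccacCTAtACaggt
Arid3c A_55_P2077278: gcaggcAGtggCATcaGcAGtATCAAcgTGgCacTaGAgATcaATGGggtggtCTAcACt
Arid3b A_55_P2123987: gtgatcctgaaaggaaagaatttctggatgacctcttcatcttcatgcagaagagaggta

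Levels below are processed signals on a log2 scale, set relative to the 75th percentile of the same array, so 0 is that percentile. That percentile was a signal of 1925 to 2234 on the 4 BM arrays and 271.5 to 487.9 on the 4 FL arrays. The 4 BM arrays shared 1 slide and 1 scan, while FL was split by number, with both arrays numbered 1 on another slide and both numbered 2 on a further one. The median SD of a probe between replicates was 0.08 and 0.07 in the BM groups, 0.22 in FL let-7b and 0.28 in FL empty vector. The limma fit over all 8 arrays used 1 spread per probe. Errors and p-values of each tissue therefore also carry the spread of the other tissue. The transduced gene was seen on Lin28b probe A_52_P532355, which read 0.35 and 0.07 in BM Lin28b. It was not well above background in BM empty vector, which puts BM Lin28b at least 121-fold higher. The limma test of the measured signals gave 9.22 ± 0.26 (log2, limma SE, adjusted p = 0.00174), a size that rests on those dim signals. The other Lin28b probe, A_55_P1970905, differed by 0.64 ± 0.28 (log2, limma SE) in the same comparison, and whether it lies in the transduced sequence is not known here. It was not well above background on the second BM empty vector array, and normexp background correction in place of the scanner's gave a difference of 0.07. Of 12 pro-B markers 11 were tested, and all 11 were well above background on all 8 arrays.

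Arid3a was low in adult BM cells with empty vector, higher with Lin28b, high in FL cells with empty vector and lower with let-7b. On probe A_55_P1952166 the log2 levels were 2.01 and 1.92 in BM empty vector and 2.91 and 3.16 in BM Lin28b. In the FL cells the same probe read 3.66 and 3.42 with empty vector and 2.61 and 2.55 with let-7b. In each tissue, the groups did not overlap on this probe. The second Arid3a probe, A_55_P2182358, read 0.58 and 0.50 in BM empty vector, 1.53 and 1.87 in BM Lin28b, 1.84 and 1.69 in FL empty vector and 0.49 and 0.65 in FL let-7b. Its group means had the same order as on the first probe, with the same lack of overlap within each tissue. Across tissues, however, FL let-7b overlapped BM empty vector on this probe, and FL empty vector overlapped BM Lin28b.

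Arid3b had another order at this scaling, with both FL groups above both BM groups on each of its 3 probes. Median scaling put FL let-7b below BM Lin28b on A_51_P161554 (-0.35) and A_55_P2123993 (-0.05). Quantile scaling did so on A_55_P2123987 (-0.02). The brightest Arid3b probe over the 8 arrays, A_51_P161554, read 0.41 and 0.63 in BM empty vector, 1.14 and 1.21 in BM Lin28b, 1.30 and 1.97 in FL let-7b and 2.83 and 2.97 in FL empty vector. The 4 groups did not overlap, and FL let-7b had the widest gap between its arrays. Probe A_55_P2123993 read -3.56 and -3.35 in BM empty vector, -3.32 and -3.38 in BM Lin28b, -2.60 and -2.59 in FL let-7b and -2.26 and -2.26 in FL empty vector. Here the BM groups overlapped, while the FL groups lay apart. Probe A_55_P2123987 read -5.40 and -5.38 in BM empty vector, -5.22 and -5.09 in BM Lin28b, -4.33 and -3.98 in FL let-7b and -3.36 and -2.99 in FL empty vector.

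Arid3c was near the limit of detection. Its probe was well above background on 6 of 8 arrays, all but the first BM empty vector and the second FL let-7b array, and its processed signals ran from 12.5 to 26.9. Its levels were -7.10 and -6.31 in BM empty vector, -6.90 and -6.87 in BM Lin28b, -5.03 and -5.22 in FL let-7b and -4.30 and -4.33 in FL empty vector. The lowest signal well above background lay at -7.13 to -6.55 on the BM arrays and at -5.56 to -4.49 on the FL arrays, so this limit differed between the tissues in the same direction as the Arid3c levels.

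**Figure D1:**
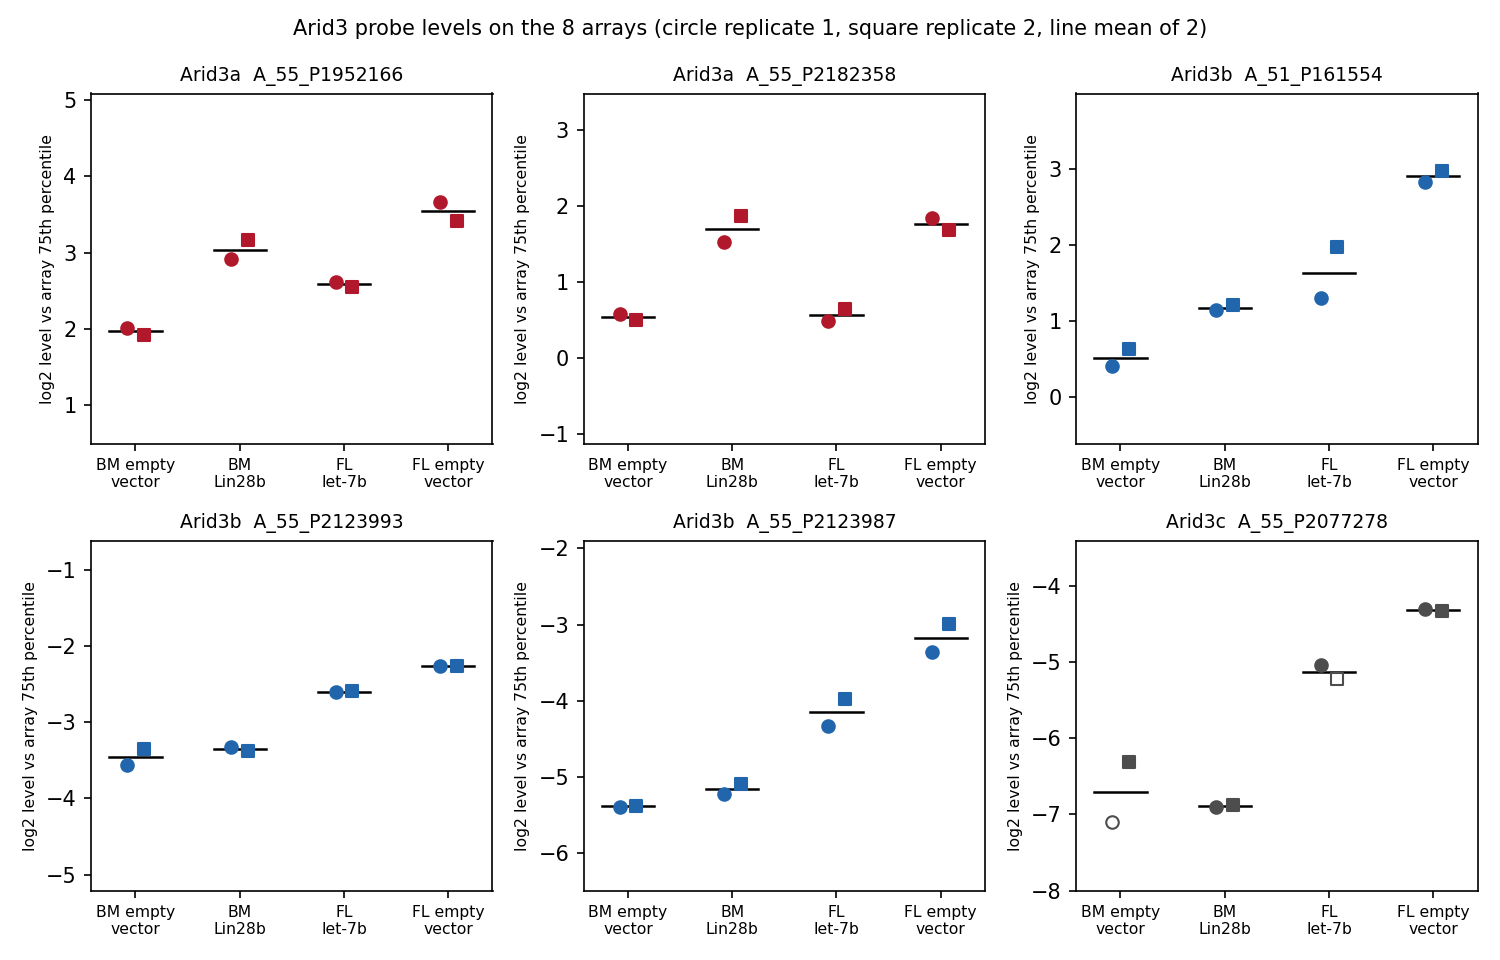
Log2 level against the array's 75th percentile (y axis) of the 6 Arid3 probes in the 4 groups (x axis), 1 point per array (circle for replicate 1, square for replicate 2), with the mean of 2 arrays as a line and open points where the spot was not well above background. Every panel spans the same log2 range. By group mean, Arid3a is lowest in BM empty vector and highest in FL empty vector on both probes. On A_55_P2182358 the arrays of BM empty vector overlap those of FL let-7b, and those of FL empty vector overlap those of BM Lin28b. All 3 Arid3b probes are, by group mean, lowest in BM empty vector and highest in FL empty vector.

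Lin28b in adult BM cells was compared with its empty vector to ask whether a gain of the let-7 inhibitor moves the family toward its fetal level. Arid3a was 2.10-fold higher on probe A_55_P1952166, a log2 difference of 1.07 ± 0.16 (limma SE, n = 2 and 2, 95% interval 0.69 to 1.46). The second Arid3a probe gave 2.23-fold, or 1.16 ± 0.16 (interval 0.75 to 1.56). Neither passed the test, with limma adjusted p of 0.86 and 0.835, although by p they ranked 18 and 17 among the 28409 probes. Between arrays of the same number the Arid3a differences were 0.90 and 1.25 on the first probe and 0.95 and 1.37 on the second.

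Arid3b was higher with Lin28b by a smaller amount. Its bright probe A_51_P161554 differed by 0.65 ± 0.24 (limma, interval 0.05 to 1.25, adjusted p = 1). The other probes differed by 0.10 ± 0.13 (A_55_P2123993, interval -0.21 to 0.42) and 0.24 ± 0.19 (A_55_P2123987, interval -0.23 to 0.70). Arid3c differed by -0.18 ± 0.26 (interval -0.83 to 0.48).

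By limma's adjusted p, 0 of the 6 Arid3 probes were called with Lin28b, against 0.00352% of all probes, which is the 1 Lin28b probe named above. At an unadjusted p below 0.05 the count was 3 of 6 (both Arid3a probes and A_51_P161554), against 3.46% of all probes. In 4 of 6 probes both Lin28b arrays were above both empty-vector arrays, against 17.8% of all probes. The 6 probes read 3 genes in the same RNA pools, so these counts and those below are not of independent readings. The median difference of the 6 was 0.44, and that of all probes was -0.04.

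The stromal marker list (9 of 10 genes tested, among them collagens and Vcam1) moved with Lin28b as well, and OP9 stroma was present in every culture. All 9 were higher, with a median of 1.08 and 0 called. The log2 of their summed level was 3.24 to 3.53 in BM empty vector and 4.12 to 4.68 in BM Lin28b. Of the myeloid list (9 of 10 genes tested) 4 were higher and 5 lower with Lin28b, with a median of -0.05 and 0 called. The log2 of its summed level was 3.19 to 3.26 in BM empty vector and 2.93 to 3.31 in BM Lin28b. Among those higher, S100a9 differed by 6.95 ± 2.89 and S100a8 by 5.15 ± 2.48 (log2, limma SE). Their BM empty vector means, -8.97 and -9.01, lay below the lowest signal well above background there, so these sizes are uncertain. The mean log2 level of the list was -4.13 and -3.98 in BM empty vector and -3.4 and -2.13 in BM Lin28b. Of the 11 pro-B markers tested, 9 were lower and 2 higher with Lin28b, with a median of -0.16 and 0 called. The part of these markers in the Arid3a and Arid3b differences was not tested. In bulk RNA, a change in the number of cells of a type and a change in RNA per cell cannot be told apart.

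In FL cells the reverse manipulation was made, a gain of let-7b. Arid3a was 1.95-fold lower on probe A_55_P1952166 (-0.96 ± 0.16, limma SE, n = 2 and 2, interval -1.35 to -0.57) and 2.29-fold lower on A_55_P2182358 (-1.19 ± 0.16, interval -1.60 to -0.79). Limma's adjusted p values were 0.161 and 0.127, so neither passed. Within the slides, each of which held 1 array of both groups, the Arid3a differences were -1.05 and -0.87 on the first probe and -1.34 and -1.04 on the second.

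Arid3b was lower with let-7b on all 3 probes. A_51_P161554 was 2.41-fold lower (-1.27 ± 0.24, interval -1.87 to -0.67, limma adjusted p = 0.208), and within the slides it differed by -1.53 and -1.0. A_55_P2123987 was 1.97-fold lower (-0.98 ± 0.19, limma adjusted p = 0.21), with -0.97 and -0.99 within the slides. The third probe, A_55_P2123993, gave a smaller difference of -0.33 ± 0.13 (interval -0.65 to -0.01, limma adjusted p = 0.503), which was -0.33 on both slides. Arid3c gave -0.81 ± 0.26 (limma adjusted p = 0.43), with 1 of 2 let-7b arrays well above background.

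For let-7b, limma's adjusted p called 0 of 6 Arid3 probes, against 0.0246% of all probes. At an unadjusted p below 0.05 it was 6 of 6, against 9.64% of all probes. Both let-7b arrays lay below both empty-vector arrays in 6 of 6 probes, against 18.2% of all probes. Here too the 6 probes read 3 genes in the same RNA pools. The median of the 6 was -0.97, with all probes at -0.05. With normexp background correction in place of the scanner's, both dim Arid3b probes and Arid3c turned positive (0.32 for A_55_P2123993, 0.40 for A_55_P2123987 and 0.60 for Arid3c). That setting moved the median of all probes from -0.05 to 0.36. The Arid3a probes and A_51_P161554 stayed below 0 under every alternative run. A variance trend with robust moderation called both Arid3a probes lower (limma adjusted p = 0.0488 and 0.0334).

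Most stromal markers were higher with let-7b too, 7 of 9 genes with a median of 1.04 and 0 called. The log2 of their summed level was 2.13 to 2.14 in FL empty vector and 2.51 to 3.38 in FL let-7b. Of the 11 pro-B markers tested, 9 were higher and 2 lower with let-7b, with a median of 0.21 and 0 called. Under normexp correction 5 were higher and 6 lower, with a median of -0.09. The part of the stromal and pro-B markers in the Arid3 differences was not tested.

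**Figure D2:**
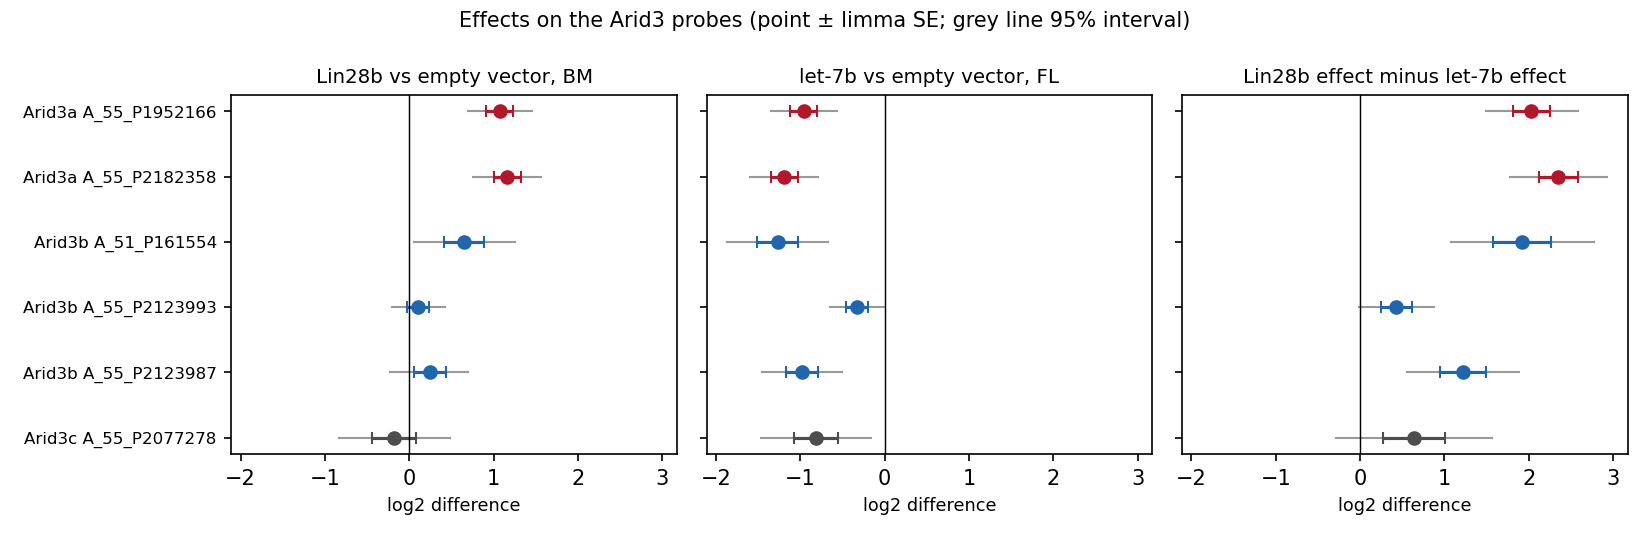
Log2 difference (x axis) of each Arid3 probe (y axis) for Lin28b against empty vector in BM, for let-7b against empty vector in FL, and for the first effect minus the second. Points are estimates with limma's standard error, grey lines are 95% intervals, and each group held 2 arrays. Both Arid3a probes lie near 1 with Lin28b and near -1 with let-7b.

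Whether the 2 manipulations differ in their effect was tested directly, as the Lin28b difference minus the let-7b difference. The 2 comparisons share no array. For Arid3a this was 2.03 ± 0.22 (interval 1.49 to 2.58, limma adjusted p = 0.115) and 2.35 ± 0.23 (interval 1.78 to 2.93, adjusted p = 0.0983), ranks 30 and 19 by p among the 28409 probes. For Arid3b it was 1.92 ± 0.34 on A_51_P161554 (limma adjusted p = 0.254), 1.22 ± 0.27 on A_55_P2123987 and 0.43 ± 0.18 on A_55_P2123993. Arid3c gave 0.64 ± 0.37. By limma's adjusted p, 0 of 6 were called, against 0.00704% of all probes. With the variance trend and robust moderation both Arid3a probes were called (limma adjusted p = 0.0197 and 0.0176).

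Of the 6 probes, 4 were higher with Lin28b and lower with let-7b with no overlap in either tissue (both Arid3a probes, A_51_P161554 and A_55_P2123987), against 4.18% of all probes (1187). Over the 6, the median of the difference between the effects was 1.57, and over all probes it was 0.01. The 2 Arid3a probes followed each other over the arrays, with r = 0.89 over 8 arrays and 0.991 once each tissue was centred on its mean. They share the arrays and the gene, so this describes the agreement of 2 readings of 1 RNA pool.

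**Figure D3:**
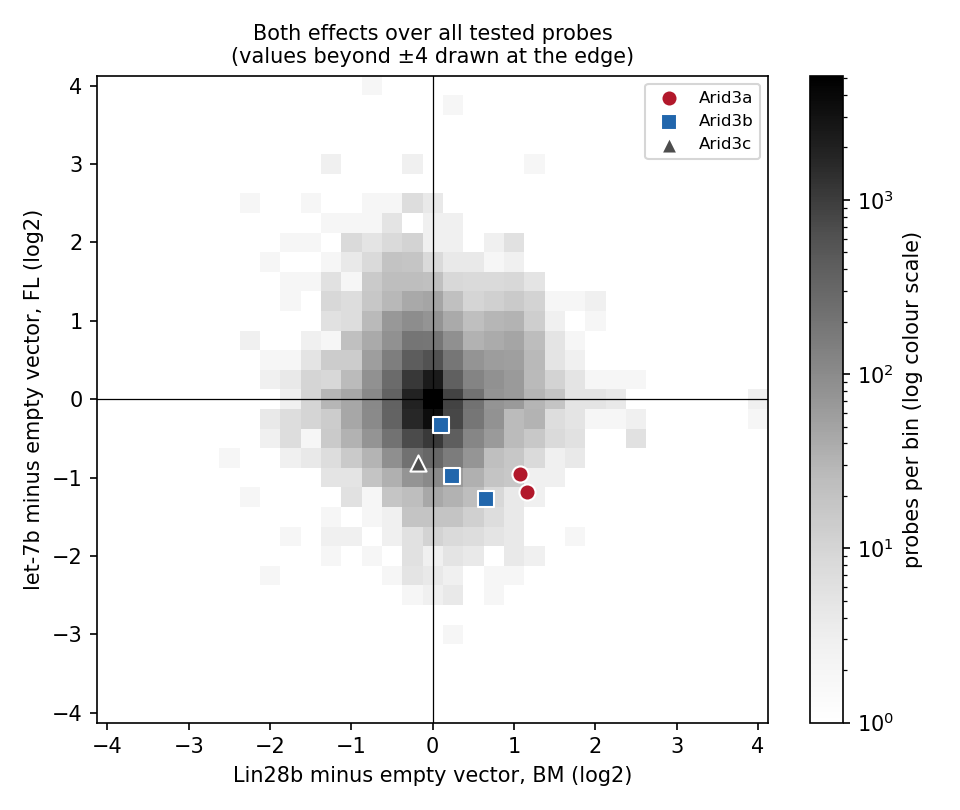
Lin28b effect in BM (x axis, log2) against let-7b effect in FL (y axis, log2) for all 28409 tested probes, as the number per square bin on a log colour scale, with the 6 Arid3 probes drawn on top. Values beyond the axis range are drawn at the edge. The Arid3a probes and the bright Arid3b probe lie at the lower right, away from the dense centre.

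Between the tissues, with empty vector on both sides, Arid3a and Arid3b were higher in FL than in BM on all their probes. Arid3a rose 2.99-fold on A_55_P1952166 (1.58 ± 0.16, limma adjusted p = 0.000995) and 2.34-fold on A_55_P2182358 (1.23 ± 0.16, adjusted p = 0.00212). Arid3b rose 5.20-fold on A_51_P161554 (2.38 ± 0.24, limma adjusted p = 0.00105), 4.64-fold on A_55_P2123987 (2.21 ± 0.19, adjusted p = 0.000781) and 2.28-fold on A_55_P2123993 (1.19 ± 0.13, adjusted p = 0.00117). For the dim probe A_55_P2123987, both BM levels lay below the lowest signal well above background on the second FL empty vector array (-4.49). Its processed signal had a geometric mean of 48.4 in BM and 40.2 in FL empty vector, so the size of its rise rests on the scaling. The fit gave 2.39 ± 0.26 for Arid3c (limma adjusted p = 0.00125), but only 1 of 2 BM arrays was well above background, both BM levels lay below the lowest signal well above background on either FL array, and the geometric mean of the processed signal was 19.4 in BM and 18.2 in FL. No direction for Arid3c is drawn from this value.

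All 6 probes were called higher in FL, Arid3c with that limit, against 39.1% of all probes, so the count says little about the family by itself. The median of the 6 was 1.90, and all probes had a median of 0.47. Tissue, vector, slide and scan changed together here and cannot be told apart. The direction also appears only after scaling between arrays. The geometric mean of the processed signal of A_55_P1952166 was 7910 in BM empty vector and 4220 in FL empty vector, and that of A_51_P161554 was 2910 and 2710.

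Under quantile scaling, which centres the tissue difference of all probes at 0, the bright probes kept 1.49 for Arid3a and 2.31 for Arid3b. Scaled to the median spot, which was added after the data were seen and put all probes at -0.35, they gave 0.76 and 1.56. That scaling ended the call for A_55_P2182358 (0.40, limma adjusted p = 0.188) and A_55_P2123993 (0.37, adjusted p = 0.152). The 6 stayed above 0 under each setting run. Markers of other cells also differed between the tissues. Medians were 2.3 for the myeloid list (9 of 10 genes tested), 2.17 for the erythroid (5 of 9) and 2.44 for the hepatocyte (3 of 8). They were 2.49 for the T and NK list (5 of 8) and -1.40 for the stromal list (9 of 10). Gata1 was well above background on 2 of 8 arrays and Cd8a, S100a8 and Klf1 on 4 each, so the sizes for such genes are uncertain. Others, among them Csf1r, Apoa2 and Cd3e, were well above background on all 8. The stromal median was 0.23 with normexp correction, -2.11 with quantile and -2.23 with median scaling, and the other 4 medians stayed above 0, at 1.47 to 2.13 for the myeloid, 1.13 to 2.16 for the erythroid, 1.62 to 2.4 for the hepatocyte and 1.67 to 2.46 for the T and NK list. The part of these markers in the Arid3 differences was not tested.

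**Figure D4:**
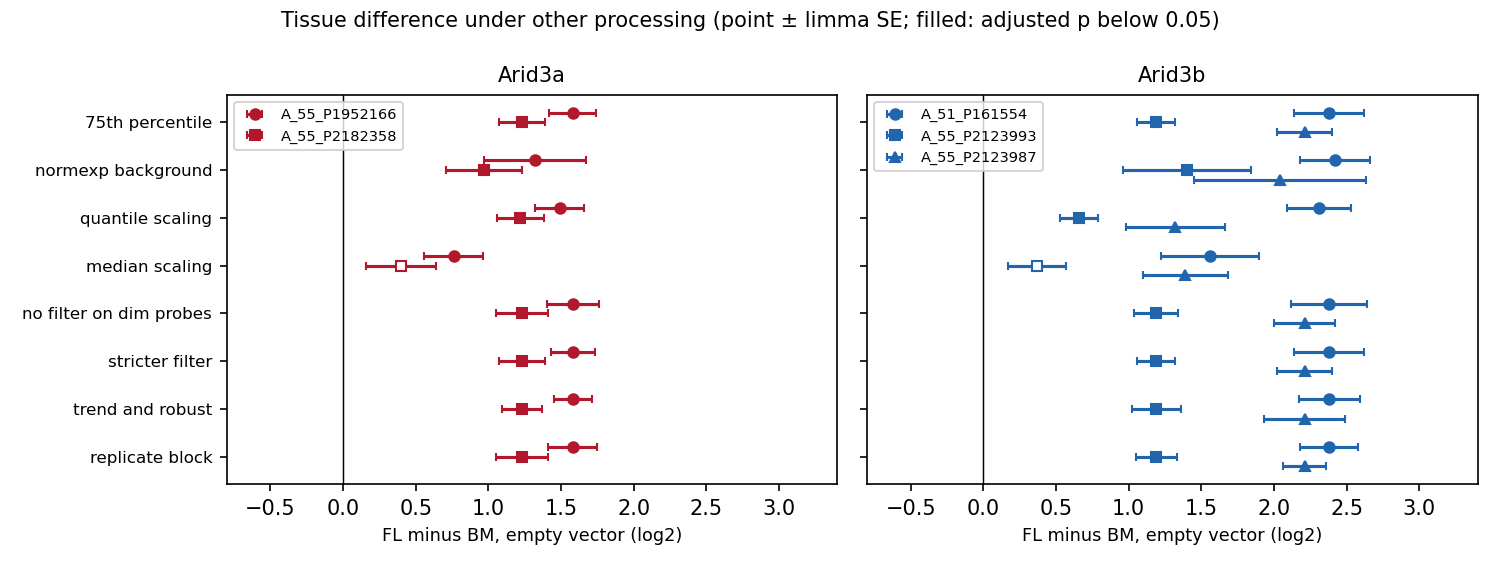
FL minus BM difference with empty vector (x axis, log2) of the Arid3a and Arid3b probes under the scaling used and 7 other settings (y axis), with limma's standard error and filled points where the adjusted p was below 0.05. All points lie above 0, and median scaling gives the smallest values for both Arid3a probes.

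The order of the groups was set by comparing neighbours, with all levels as log2 relative to the 75th percentile. For Arid3a on A_55_P1952166 the order from low to high was BM empty vector (1.96 ± 0.07, SD, n = 2), FL let-7b (2.58 ± 0.04), BM Lin28b (3.04 ± 0.18) and FL empty vector (3.54 ± 0.18). FL let-7b differed from BM empty vector by 0.62 ± 0.16 (limma adjusted p = 0.02), where 54.1% of all probes were called. FL empty vector differed from BM Lin28b by 0.51 ± 0.16 (limma adjusted p = 0.0334), where 61.7% of all probes were called. FL let-7b differed from BM Lin28b by -0.46 ± 0.16 (limma adjusted p = 0.0491), where 57.6% of all probes were called.

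These neighbouring differences did not hold under every alternative. With 1 array left out in turn, the limma adjusted p reached 0.107, 0.192 and 0.248 in the order just given. The first lost its call without either array of BM empty vector or of FL let-7b, and the second without any 1 of the BM arrays or the first FL empty vector array. The FL let-7b against BM Lin28b difference lost its call without any 1 of the BM or the FL let-7b arrays. Median scaling turned the first pair of differences to -0.19 and -0.32, and normexp correction left 0.06 and 0.25 with no call. Quantile scaling ended the second call (0.35, limma adjusted p = 0.13), and keeping all dim probes ended the third (-0.46, adjusted p = 0.0694).

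On A_55_P2182358, the Arid3a levels of FL let-7b (0.57 ± 0.11) and BM empty vector (0.54 ± 0.06) differed by 0.03 ± 0.16 (interval -0.37 to 0.44), and those of FL empty vector (1.76 ± 0.10) and BM Lin28b (1.70 ± 0.24) by 0.07 ± 0.16 (interval -0.34 to 0.47). In both pairs the arrays overlapped. An interval of this width does not show that the levels are equal. Median scaling gave -0.77 and -0.75 for the same pairs (limma adjusted p = 0.0338 and 0.0326), so their closeness rests on the scaling.

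Arid3b stayed higher in FL let-7b than in BM empty vector, by 1.11 ± 0.24 on A_51_P161554 (limma adjusted p = 0.0123), which lost its call without the first BM empty vector array (1.00, adjusted p = 0.0745) and fell to 0.30 under median scaling (adjusted p = 0.479). Its neighbours FL let-7b (1.63 ± 0.47) and BM Lin28b (1.17 ± 0.05) differed by 0.46 ± 0.24 (limma adjusted p = 0.152), a value of 0.79 without the first FL let-7b array (adjusted p = 0.0216) and -0.35 under median scaling. FL empty vector was above BM Lin28b by 1.72 ± 0.24 (limma adjusted p = 0.00218, and 0.90 with adjusted p = 0.0571 under median scaling).

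Among the other genes of the ARID domain family, which includes SWI/SNF subunits (Arid1a, Arid1b, Arid2), corepressor subunits (Arid4a, Arid4b), H3K4 demethylases (Kdm5 genes) and the Polycomb partner Jarid2, 11 were tested on their brightest probe. With Lin28b, 5 were higher and 6 lower with 0 called and a median of -0.04. The largest size among them was -0.32 ± 0.13 (Arid4a), against 1.07 for Arid3a. With let-7b, 10 of 11 were lower with 0 called and a median of -0.19, led by Kdm5b at -0.61 ± 0.24 (limma adjusted p = 0.503). Under normexp correction 8 of 11 were lower.

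Between tissues 4 of the 11 were called higher in FL and 2 lower, against 39.1% and 19.8% of all probes, with a median of 0.32 where all probes had 0.47. Kdm5b differed most (4.27 ± 0.24, limma adjusted p = 0.000481), and Arid4b was lower (-1.94 ± 0.22, adjusted p = 0.00135). Median scaling gave 1 higher (Kdm5b, 3.45) and 4 lower with a median of -0.50, against 17.8% higher and 37.0% lower and a median of -0.35 over all probes. Arid5b, the remaining gene of the list, did not pass the filter on dim probes.

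**Figure D5:**
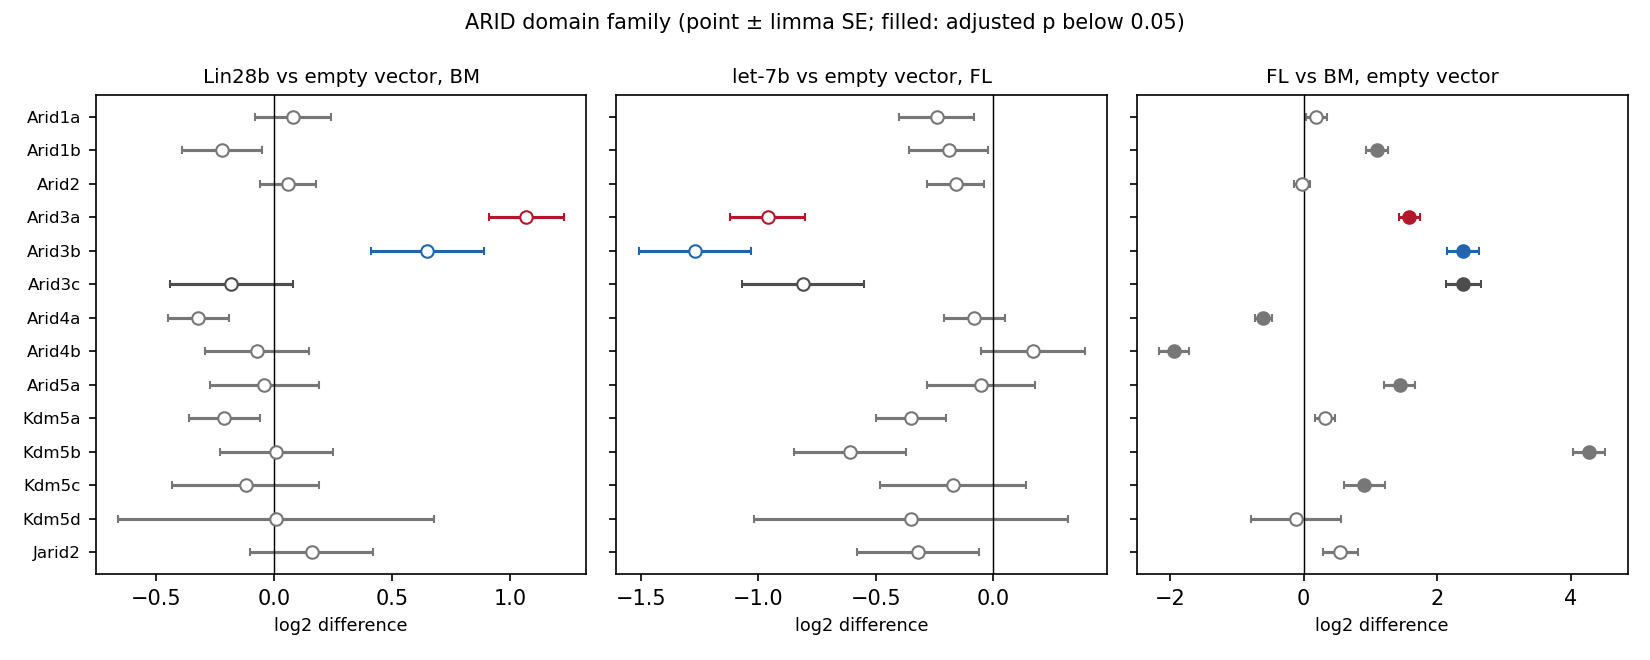
Log2 difference (x axis, with its own range in each panel) of 14 ARID domain genes (y axis) for Lin28b in BM, let-7b in FL and FL against BM with empty vector. Points carry limma's standard error and are filled where the adjusted p was below 0.05. Arid3a has the highest Lin28b value and Arid3b the lowest let-7b value of the 14.

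Genes tied to Arid3a or Arid3b function were read from a list of 9, all tested: the kinase Btk and its substrate Gtf2i, both reported to act with Arid3a on the heavy chain promoter, the nuclear body proteins Pml and Sp100, the cell cycle regulators E2f1, Rb1, Trp53 and Cdkn1a, and the demethylase Kdm4c. With Lin28b 4 were higher and 5 lower, and with let-7b 5 were higher and 4 lower, with 0 called in either. Between tissues E2f1 (0.76 ± 0.18, limma adjusted p = 0.0144) and Btk (0.39 ± 0.13, adjusted p = 0.0389) were called higher in FL and Cdkn1a (-0.72 ± 0.20, adjusted p = 0.0237) lower. These counts of 2 and 1 stand against 39.1% higher and 19.8% lower over all probes. Under median scaling 0 of the 9 were called higher and 5 lower, against 17.8% and 37.0% of all probes.

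The Lin28 and let-7 list held 13 genes, all tested, and 0 were called with either virus on their brightest probe. Known let-7 targets Hmga2 and Igf2bp1 differed by 2.02 ± 0.26 and 1.56 ± 0.20 with Lin28b (limma adjusted p = 0.72 for both), larger sizes than that of Arid3a. Under normexp correction Hmga2 gave 1.91, but Igf2bp1 gave 0.69, a smaller size than the 1.07 of Arid3a. With let-7b, Igf2bp1 differed by -0.85 ± 0.20, the microRNA-processing genes Dicer1 and Dgcr8 by -0.88 ± 0.15 and 1.00 ± 0.16, and Hmga2 by -0.03 ± 0.26. Lin28b itself differed by -1.20 ± 0.28 on A_55_P1970905 and -0.46 ± 0.26 on A_52_P532355 with let-7b. Dntt, the terminal transferase of adult pro-B cells, ran opposite to Arid3a, at -0.83 ± 0.18 with Lin28b, 1.11 ± 0.18 with let-7b and -5.87 ± 0.18 in FL against BM.

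The genes most like Arid3a in profile were found among 17091 symbols by the root mean square difference over the 8 arrays, after each probe was centred on its own mean. Closest was Gfpt2, an enzyme of the hexosamine pathway, at 0.198 log2 units (r = 0.947). Ngly1, which removes sugars from misfolded glycoproteins, and Cacna1i, a calcium channel subunit, were both at 0.236, followed by the small GTPase Rhof at 0.251 and the ring finger protein Rnft2 at 0.266. Gfpt2 differed by 1.12 with Lin28b, -0.87 with let-7b and 1.67 between tissues, close to the values of Arid3a.

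Arid3b stood at rank 1289 of the list for Arid3a, with a distance of 0.518 and r = 0.829. For Arid3b the closest were the F-box gene Fbxl12 (0.213, r = 0.981), the steroid enzyme Hsd11b1 (0.24), the tRNA synthetase Qars (0.244), Tyrobp (0.257), a signalling adaptor that is also on the myeloid marker list, and the chemokine receptor Ccr7 (0.265). Arid3c stood at rank 1279 for Arid3b. All these profiles share the same 8 arrays and the step between tissues.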

How the data were processed

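RNA of 8 mouse pro-B samples was read on Agilent arrays. The deposited scanner intensities had been background-corrected by Agilent Feature Extraction 9.5.3.1, per the file headers. A second table from the authors holds log2 values. How they were normalized is not stated in the labels or files used. Its column medians, 7.22 on BM and 6.16 on FL arrays, differ by tissue, so it was tested within a tissue only.

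Of 44397 spots, 1377 control spots were left out. Processed signals were divided by the 75th percentile of the other 43020 on their array and put on a log2 scale. Copies of a probe were averaged, 31 probes with outlier spots were dropped, and 10989 were left out for being well above background on under 2 of 8 arrays, which kept 28409 of 39429. Kept probes were named by accession (19856), symbol (1960) or synonym (563) through a RefSeq table, and 6030 kept the name in the file.

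limma 3.58.1 (lmFit, eBayes; R 4.3.3 with the data.table package, version 1.17.8, and Python 3.11.15 for sequences and plots) fitted 1 mean per group over the 8 arrays, with Benjamini-Hochberg adjustment over 28409 probes and calls below 0.05. An exact permutation test of 2 against 2 arrays cannot go below p = 0.333, so calls rest on limma's model. It joins each probe's own spread within groups (residual degrees of freedom 4) with that shared between probes (prior degrees of freedom 1.72). Precision is limited by having 2 arrays a group. A lower bound ("at least N-fold") compares the bright group's mean with a floor for the dim group, for each dim array whichever is larger of the probe's own signal and the dimmest signal still well above background. The fit was tested on simulated data.

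Every Arid3 probe is named. Of each gene list, up to 4 genes per comparison were eligible by smallest adjusted p on the brightest probe, and the 5 nearest profiles of Arid3a and of Arid3b. The members, lists and tests were chosen with earlier results of these data known. Alternatives were normexp correction (offset 50), quantile and median scaling, no filter on dim probes or a stricter one (4 of 8 arrays), a variance trend with robust moderation, 1 probe per gene, the replicate number as a block, each tissue alone, the authors' table and leaving out each array.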

Additional observations from a re-analysis of the deposited data

How the results depend on the processing

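Of the alternatives run for the Arid3 probes, 613 gave the same direction and side of the threshold, 37 lost a call, 5 gained one and 20 turned the direction. No alternative called an Arid3 probe with Lin28b. A variance trend with robust moderation called 2 with let-7b and 2 in the difference between the effects, with A_55_P1952166 at -0.96 and 2.03. Without the first FL empty vector array limma called 368 probes higher and 257 lower of all probes with let-7b, and without any other single array 0, but no Arid3 probe was among these calls. Normexp correction turned let-7b differences to 0.32 and 0.40 (dim Arid3b probes) and 0.60 (Arid3c), and the differences between the effects to -0.25, -0.32 and -0.74. With 1 array left out, the Lin28b difference of Arid3c ran from -0.57 to 0.21, and A_55_P2182358 from -0.05 to 0.11 (FL let-7b against BM empty vector) and from -0.10 to 0.24 (FL empty vector against BM Lin28b). Normexp gave -0.23 and -0.18 for those pairs. Median scaling gave -0.19 and -0.77 for Arid3a in the first pair and -0.32 and -0.75 in the second. FL let-7b against BM Lin28b turned to -0.02 for A_55_P2123987 with quantile scaling, and to -0.35 (A_51_P161554) and -0.05 (A_55_P2123993) with median scaling. The cause was not tested.

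Calls between tissues over all probes split 11113 higher and 5620 lower, against 6955 and 7759 with quantile scaling, 5070 and 10525 with median scaling and 10058 and 1909 with normexp. With let-7b the count over all probes was 5 higher and 2 lower, 50 and 26 with quantile scaling, 28 and 10 with the stricter filter, 58 and 31 with the variance trend, 17 and 3 with median scaling, and 0 with normexp, no filter, the replicate block, FL alone or the authors' table. Same-numbered arrays deviated together in FL (r = 0.514), where the number is also the slide, but not in BM (r = -0.0613), so the pairing is not settled. With the replicate number as a block, A_55_P1952166 had adjusted p = 0.809 with Lin28b and 0.264 with let-7b, and its differences of FL let-7b (0.0723) and FL empty vector (0.052) from BM Lin28b were no longer called. The block changed no other call of an Arid3 probe. Arid3c and the dim Arid3b probes lie close to background, where another background correction turned the direction.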

Other observations

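In the authors' deposited table, tested within each tissue with limma, the Arid3a differences were 1.08 ± 0.09 and 1.18 ± 0.11 with Lin28b and -0.87 ± 0.19 and -1.08 ± 0.16 with let-7b. Arid3b on A_51_P161554 differed by 0.78 ± 0.08 with Lin28b and -1.18 ± 0.24 with let-7b. The dim Arid3b probe A_55_P2123987 differed by -0.44 ± 0.20 with let-7b there, a smaller size than the -0.98 from the scanner signals. None of the 6 Arid3 probes was called in that table, where limma's adjusted p ran from 0.292 upward for Lin28b.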
